A study of Homo sapiens with 8 samples.

Results

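The genes of chromosome 15 were followed along the chromosome in human BEAS-2B cells, a bronchial epithelial line, before, during and after exposure to nickel. All 887 chromosome 15 genes of the 25411 genes in the count tables were taken, in the order of their transcription starts on hg19. Of these, 396 reached a mean of 50 reads over the 8 libraries, 251 had reads but fell below that level, and 240 had no read in any library. The genes just inside this limit were SRP14-AS1, with a mean of 52 reads, and FSIP1 with 52.5, and those just outside were SNX22 with 49.6 and GCOM1 with 48.8. The 396 expressed genes ran from LOC646214 to TARSL2, from 21.9 to 102.3 Mb. The chromosome was chosen by the log2 differences of its genes from untreated cells in these same libraries. The comparisons with untreated cells are therefore given as description, without P values.

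The study compared 4 groups of 2 RNA-Seq libraries each. UT cells were untreated. Ni-E cells had been kept in 100 µM NiCl2 for 6 weeks. Ni-W cells were a population grown from a single nickel-exposed cell and expanded without nickel for more than 6 months. For HCl3 cells the labels word the treatment as for Ni-W, but state neither how long they were without nickel nor how they relate to Ni-W. Ni-W is thus 1 clonal population, and so is HCl3 if the wording holds for it, whereas no cloning is described for UT and Ni-E. What nickel did and what the choice of a clone did cannot be told apart in the comparisons of Ni-W or HCl3 with UT or Ni-E. Nor can the longer culture of Ni-W, since no untreated cells kept for the same time are described. The study states that its RNA came from 2 biological replicates, but it does not describe HCl3. Neither it nor the labels say whether the 2 libraries of a group came from separate cultures. The P values therefore measure the spread between these libraries, which may still be technical. The labels place both Ni-E libraries in experiment 2 and the HCl3 libraries in experiments 3 and 4. In HCl3 against Ni-E, group and experiment therefore cannot be told apart. The labels name no experiment for UT or Ni-W, so whether group and experiment coincide in the other comparisons is not known.

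Human chromosome 15 has a short arm of repeated sequence, and its annotated genes lie on the long arm. Next to the centromere, the region 15q11-q13 holds a cluster of imprinted genes, which are read from only 1 parental copy. SNURF, SNRPN, MAGEL2, NDN, MKRN3 and the noncoding RNAs IPW and PWAR5 are read from the paternal copy, and CpG methylation around the SNURF and SNRPN start marks the silent maternal copy. UBE3A, a ubiquitin ligase, is read from the maternal copy in neurons and from both copies in most other cells. The rest of the chromosome holds genes of many functions, among them the thrombospondin gene THBS1, the TGF-beta signal transducer SMAD3, the MHC class I light chain B2M and the mitotic checkpoint kinase BUB1B.

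The upstream sequences of 5 of these genes show how the starts discussed below differ in CpG content. They were taken from RefSeq on GRCh38.p14, cover 250 bases before the first listed start on the coding strand, and have each CG in capitals. SNURF is shown because it was almost silent in UT and not in the washed-out cells, NDN because it is imprinted and had no read, UBE3A because it was read throughout, and CEMIP and CHAC1 because they were among the genes furthest above and below UT in the washed-out cells.
SNURF (chr15:24954737-24954986, + strand): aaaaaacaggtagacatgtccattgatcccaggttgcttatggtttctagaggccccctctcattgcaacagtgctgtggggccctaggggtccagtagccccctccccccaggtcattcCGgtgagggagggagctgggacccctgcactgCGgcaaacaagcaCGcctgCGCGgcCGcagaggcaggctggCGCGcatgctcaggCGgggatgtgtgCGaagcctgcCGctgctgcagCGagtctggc
NDN (chr15:23687306-23687555, - strand): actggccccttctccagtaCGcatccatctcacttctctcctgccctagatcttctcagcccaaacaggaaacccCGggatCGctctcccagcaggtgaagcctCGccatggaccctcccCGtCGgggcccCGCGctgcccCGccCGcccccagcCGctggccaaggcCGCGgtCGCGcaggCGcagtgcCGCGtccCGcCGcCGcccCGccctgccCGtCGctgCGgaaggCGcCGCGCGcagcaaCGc
UBE3A (chr15:25439025-25439274, - strand): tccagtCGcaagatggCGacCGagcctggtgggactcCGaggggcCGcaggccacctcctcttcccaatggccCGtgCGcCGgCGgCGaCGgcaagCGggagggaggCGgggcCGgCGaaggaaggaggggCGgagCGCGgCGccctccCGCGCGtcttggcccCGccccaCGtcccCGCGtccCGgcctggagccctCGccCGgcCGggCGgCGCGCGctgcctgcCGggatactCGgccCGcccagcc
CEMIP (chr15:80779120-80779369, + strand): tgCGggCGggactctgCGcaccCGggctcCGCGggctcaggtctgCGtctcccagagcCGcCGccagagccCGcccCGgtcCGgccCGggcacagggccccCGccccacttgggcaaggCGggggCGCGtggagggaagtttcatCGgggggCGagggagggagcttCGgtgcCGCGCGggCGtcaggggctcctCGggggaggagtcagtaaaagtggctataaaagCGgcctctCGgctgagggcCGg
CHAC1 (chr15:40953221-40953470, + strand): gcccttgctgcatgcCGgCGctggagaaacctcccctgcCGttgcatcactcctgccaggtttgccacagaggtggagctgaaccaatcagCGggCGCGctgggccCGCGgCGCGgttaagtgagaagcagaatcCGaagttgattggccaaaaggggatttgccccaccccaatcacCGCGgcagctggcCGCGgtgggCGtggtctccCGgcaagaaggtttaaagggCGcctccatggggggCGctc
The SNURF window held 12 CG, and 48.5% of the 35116 RefSeq windows of the same length held as many or more. CHAC1 held 19 CG, a count reached by 34.6% of windows, CEMIP 28 (15.9%), NDN 30 (12.4%) and UBE3A 37 (4.00%). The SNURF window is identical to 1 of the 4 listed for SNRPN. A window was found for 322 of the 396 expressed genes.

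The libraries held between 26383920 and 45692298 counted reads. The 2 libraries of each group differed by more than counting noise, so none was a copy of another. The epithelial keratins KRT8, KRT18 and KRT7 were high in all 8 libraries, between 144 and 481 RPKM (reads per kilobase and 1e6 reads), whereas KRT19, KRT5, EPCAM and CDH1, the last a defining adhesion molecule of epithelia, reached at most 0.78, 0.03, 1.79 and 0.11 RPKM. Of 9 markers of blood, endothelial and mesenchymal cells, COL1A1 was expressed at 178 to 454 RPKM, COL1A2 reached 2.05 RPKM, VWF 0.1 RPKM and the others less. The summed level of the 7 epithelial markers was 579 to 794 RPKM in UT and Ni-E and 935 to 996 RPKM in Ni-W and HCl3. That of the other 9 was 178 to 390.5 RPKM in UT and Ni-E, 219 to 246 in Ni-W and 434 to 456 in HCl3. Their part in the results below was not tested.

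Chromosome 15 took a larger part of all reads in the washed-out cells. It held 2.37 and 2.4% of the counted reads of the UT libraries, 2.26 and 2.28% of Ni-E, 3.38 and 3.35% of Ni-W, and 3.22 and 3.19% of HCl3. The means were 2.39 ± 0.021% (SD, n = 2) for UT, 2.27 ± 0.014% for Ni-E, 3.37 ± 0.022% for Ni-W and 3.21 ± 0.019% for HCl3. The 4 libraries of washed-out cells lay apart from the other 4, and Ni-E lay slightly below UT. In such bulk libraries, more cells with a given level and more RNA per cell cannot be told apart.

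The increase ran through most genes rather than a few abundant ones. Normalised counts were compared on the log2(count + 1) scale after scaling by DESeq2 size factors. The median log2 difference of the 396 genes from the UT mean was -0.00 and -0.02 for the Ni-E libraries, 0.45 and 0.46 for those of Ni-W, and 0.33 for each HCl3 library. On group means, the median was -0.02 for Ni-E, 0.44 for Ni-W and 0.32 for HCl3, which corresponds to a 1.36-fold higher level in Ni-W and 1.25-fold in HCl3. The 11659 expressed genes of the other chromosomes had medians of 0.00, -0.05 and -0.04. Relative to them, chromosome 15 was 1.40-fold higher in Ni-W and 1.29-fold higher in HCl3. The 2 UT libraries differed from each other by a median of 0.03. In Ni-W, 92.2% of the expressed chromosome 15 genes were above UT, against 45.2% of the genes elsewhere, and in HCl3 the shares were 87.9% and 45.0%.

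Counted gene by gene, 328 of the 396 genes had both Ni-W libraries above both UT libraries and 12 had both below, where the shares over all expressed genes were 34.1% and 38.2%. For HCl3 the counts were 306 above and 21 below, with 34.9% and 39.5% over all genes. For Ni-E they were 113 above and 136 below, with 30.8% and 29.5% over all genes.

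The minimum of 50 reads let in 25 genes that had a mean below 50 in UT, and these had medians of 2.07 in Ni-W and 2.18 in HCl3. The 371 genes with at least 50 reads in UT had medians of 0.42 and 0.31. The 491 genes below the minimum were also higher in sum. Of every 1e6 reads, they held 35.1 and 31.8 for UT, 30.2 and 37.8 for Ni-E, 69.4 and 63.6 for Ni-W, and 64.6 and 64.9 for HCl3.

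**Figure D1:**
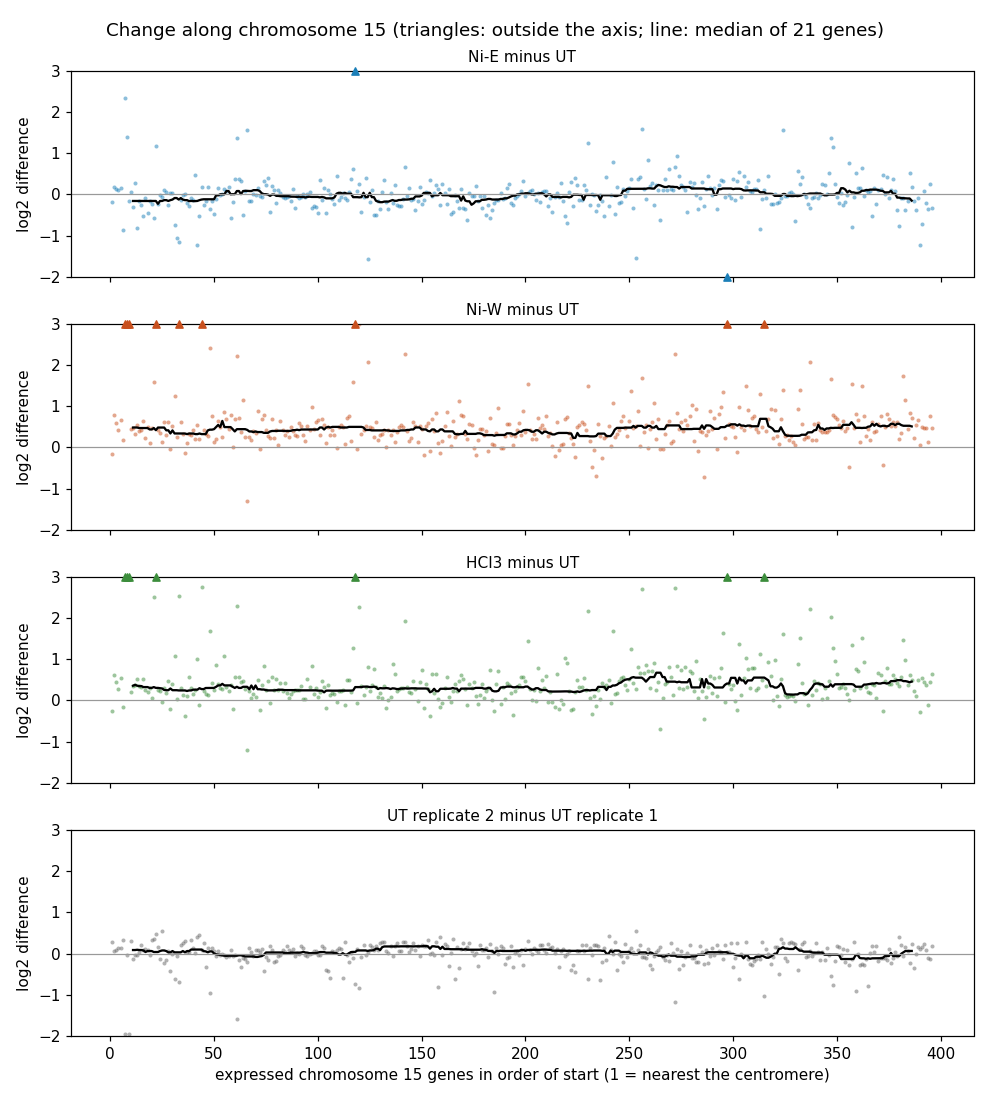
Log2 difference of each expressed chromosome 15 gene (dots) against its order along the chromosome, for Ni-E, Ni-W and HCl3 minus UT and for UT replicate 2 minus UT replicate 1, with the running median of 21 genes as a line. The running median stayed above 0 over the whole chromosome in Ni-W (0.23 to 0.69) and HCl3 (0.14 to 0.67), and crossed 0 in Ni-E (-0.25 to 0.23) and between the UT libraries (-0.13 to 0.18).

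No start or end of the Ni-W shift was found within the expressed genes at the chosen penalty. Fitting constant levels along the gene order, with at least 10 genes per level and a stretch called shifted when its median lay at least 0.25 from that of all genes, gave a single stretch in Ni-W, from LOC646214 to TARSL2, with a median 0.47 above all genes. All 396 genes thus lay inside a shifted stretch, against 24.9% of all expressed genes. With the penalty divided by 2, Ni-W was cut into 3 stretches with medians of 0.42, 0.15 and 0.50, and the middle one, 11 genes from ANP32A to LRRC49, was not shifted, which left 385 genes inside. In Ni-E the fit gave a single stretch that was not shifted, with a median 0.02 below all genes, and 0.382% of all expressed genes lay in a shifted stretch. With the penalty divided by 2, Ni-E was cut into 3 stretches with medians of -0.06, 0.10 and -0.19, none of them shifted. It was also cut into 3 with a minimum of 200 reads and on log2(RPKM + 1), again with none shifted.

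HCl3 gave 2 adjoining stretches, both shifted upwards. The first ran from LOC646214 to LRRC49 with 241 genes and a median 0.32 above all genes, and the second from THSD4 to TARSL2 with 155 genes and a median 0.45 above. Over all expressed genes, 20.4% lay in a shifted stretch. The step between 71.3 and 71.8 Mb was lost with GC and length trends taken out, when the minimum was 10 reads, when the penalty was multiplied by 2, and without UT replicate 2 or HCl3 replicate 2. On log2(RPKM + 1) it lay after SENP8 instead. LRRC49, on its near side, had 3.62 and 3.83 RPKM for UT, 3.84 and 3.74 for Ni-E, 3.72 and 4.16 for Ni-W and 3.79 and 3.63 for HCl3, and its groups overlapped. THSD4, on its far side, had 0.29 and 0.29 RPKM for UT, 0.55 and 0.5 for Ni-E, 0.62 and 0.68 for Ni-W and 1.08 and 0.89 for HCl3, with each treated group above UT. At the outer ends, LOC646214 had 0.72 and 0.86 RPKM for UT, 0.75 and 0.69 for Ni-E, 0.6 and 0.88 for Ni-W and 0.76 and 0.62 for HCl3, with overlapping groups, and TARSL2 had 2.5 and 2.81 RPKM for UT, 2.46 and 1.95 for Ni-E, 3.61 and 3.91 for Ni-W and 3.93 and 4.66 for HCl3, higher in all 4 washed-out libraries.

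Windows of 5 Mb gave the same picture in smaller steps. Over the 14 windows with at least 10 genes, the median ranged from 0.30 (60 to 65 Mb) to 0.52 (90 to 95 Mb) in Ni-W and from 0.22 (55 to 60 Mb) to 0.49 (70 to 75 Mb) in HCl3. In Ni-E it ranged from -0.22 to 0.14, with 5 of 14 windows above 0, and between the 2 UT libraries from -0.12 to 0.21. The lowest window of Ni-W lay above the highest difference between UT libraries, and that of HCl3 lay just above it.

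The shift was found at every level, base composition and length and on both strands. By quartiles of UT level, the Ni-W median was 0.68 for the lowest and 0.40 for the highest quartile, and relative to genes of the same range on other chromosomes it was 0.40 and 0.52. These quartiles were set by the UT values that also enter the difference. The 25 genes with a UT mean below 50 reads passed the minimum only through other groups. The value for genes low in UT is therefore not independent of that minimum. By quartiles of transcript GC content it was 0.39 in the lowest and 0.52 in the highest in Ni-W, and 0.22 and 0.51 in HCl3. Relative to other chromosomes, the GC quartiles lay between 0.46 and 0.55 in Ni-W and between 0.36 and 0.43 in HCl3. By quartiles of gene length the Ni-W median ranged from 0.38 to 0.47. The 196 genes on the + strand had medians of 0.45 in Ni-W and 0.36 in HCl3, and the 200 on the - strand 0.43 and 0.31.

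**Figure D2:**
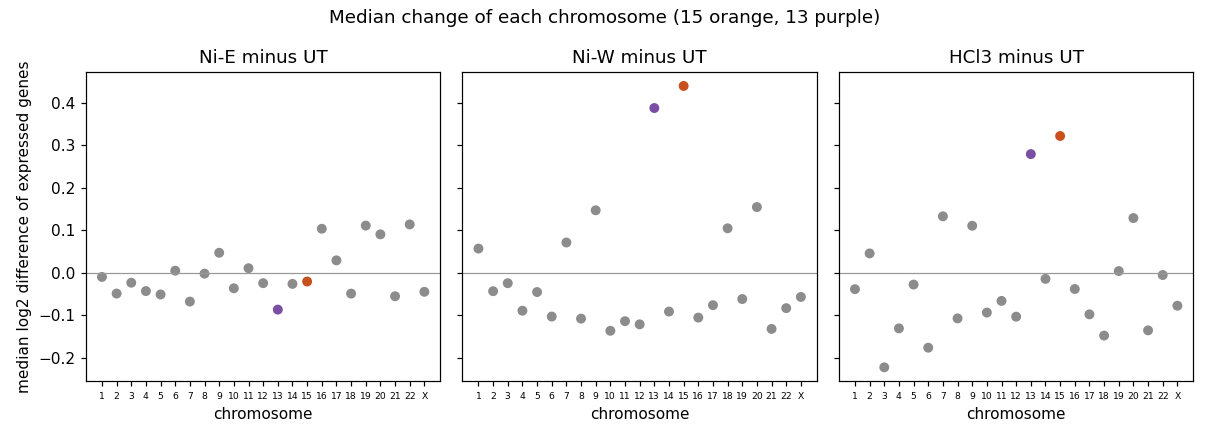
Median log2 difference from UT of the expressed genes of each of the 23 chromosomes in Ni-E, Ni-W and HCl3, with chromosome 15 in orange and chromosome 13 in purple. Chromosome 15 was the highest of the 23 in Ni-W (0.44) and HCl3 (0.32), followed by chromosome 13 (0.39 and 0.28), while all chromosomes lay between -0.09 and 0.11 in Ni-E.

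Chromosome 13 was the other chromosome that lay in shifted stretches of 1 direction along its whole length in both Ni-W and HCl3. Its 209 expressed genes had medians of 0.39 in Ni-W and 0.28 in HCl3. Shifted stretches were found on 12 chromosomes in Ni-W (10 stretches upwards, 5 downwards) and on 10 in HCl3 (8 and 4). Some on parts of other chromosomes lay as far from all genes as those of chromosome 15, or further. In Ni-W, 206 genes of chromosome 7 lay 0.47 above all genes and 130 of chromosome 9 lay 0.62 below. In HCl3, 200 genes of chromosome 7 lay 0.56 above and 48 of chromosome 18 lay 0.58 below.

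Against Ni-E, a comparison that the choice of the chromosome did not use, the washed-out libraries were again higher. The median was 0.47 for Ni-W and 0.37 for HCl3, against -0.03 for other chromosomes in each, and chromosome 13 was the only one above chromosome 15 (0.53 and 0.38). Both Ni-W libraries lay above both Ni-E libraries for 325 genes and below for 23, with 37.9% and 40.3% over all genes. For HCl3 these counts were 312 and 25, with 37.9% and 41.2% over all genes. Since the Ni-W and HCl3 libraries are those on which the chromosome was chosen, these values are not independent of that choice.

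By DESeq2 at an adjusted P under 0.05 and at least 1.5-fold, 161 of the 529 chromosome 15 genes tested were higher and 7 lower in Ni-W than in Ni-E, where 11.7% and 8.81% of all tested genes were called. In HCl3 against Ni-E, 112 were higher and 6 lower, with 10.4% and 6.78% of all genes. These are 30.4% higher and 1.32% lower of the chromosome's tested genes in Ni-W, and 21.2% and 1.13% in HCl3. After the chromosome 15 median of each library was subtracted, which asks what moved beyond the shared shift, the split was 53 higher and 26 lower for Ni-W and 51 higher and 14 lower for HCl3. As description only, since the choice of the chromosome used these contrasts, the genes past the same limits against UT were 135 higher and 3 lower of 523 for Ni-W (10.9% and 4.83% over all genes), 98 and 1 of 526 for HCl3 (11.1% and 3.74%), and 11 and 12 of 468 for Ni-E (3.75% and 2.05%, 5.8% in all). With the chromosome 15 median subtracted, these became 45 higher and 11 lower for Ni-W, 55 and 9 for HCl3, and 11 and 9 for Ni-E. No share over all genes is given beside counts made with that median subtracted, here or below.

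The largest differences on the chromosome were in paternally expressed genes of 15q11-q13. SNURF (chr15:25200135-25223729, hg19), which encodes a small protein from the same transcript as SNRPN, had 3 and 2 reads for UT, 11 and 7 for Ni-E, 1081 and 661 for Ni-W and 472 and 534 for HCl3. SNRPN, which encodes a core protein of small nuclear ribonucleoproteins, is listed with the same gene body and had nearly the same counts, so the 2 rows are not separate measurements. The UT and Ni-E libraries held at most 11 reads of SNURF and the washed-out libraries at least 472. Pooled over libraries, SNURF was 282-fold (95% interval 121 to 870.4) higher in Ni-W than in UT, and 165-fold (95% interval 70.6 to 510.2) higher in HCl3, with intervals that cover counting error only. Against Ni-E, the fitted log2 fold change was 6.42 ± 0.38 (SE) for Ni-W and 5.66 ± 0.40 for HCl3. Genes that reached the minimum of 50 reads only through the groups in which they were high, as SNURF did, had to differ, and no P value is given for them against UT or Ni-E. Its RPKM values were 16.0 and 14.4 for Ni-W and 8.65 and 9.37 for HCl3.

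The noncoding RNAs downstream of SNRPN followed the same division. IPW (chr15:25361692-25367623), a spliced noncoding RNA, had 3 and 0 reads for UT, 2 and 0 for Ni-E, 244 and 157 for Ni-W and 123 and 118 for HCl3. PWAR5 had 1 and 0 reads for UT, 1 and 0 for Ni-E, 48 and 43 for Ni-W and 29 and 31 for HCl3. PWARSN, between SNRPN and PWAR5, had 0 and 0 reads for UT, 0 and 0 for Ni-E, 28 and 27 for Ni-W and 11 and 10 for HCl3. IPW was 108-fold (95% interval 36.8 to 527) higher in Ni-W than in UT and 66-fold (95% interval 22.3 to 322) higher in HCl3. PWARSN was at least 7.44-fold higher in Ni-W and at least 2.78-fold higher in HCl3 than a floor of 3 reads per UT library. Of the 30 SNORD116 small nucleolar RNA entries, which lie in the introns of this transcript, none had a read in UT or Ni-E, while 4 and 7 had one in the Ni-W libraries and 5 and 2 in the HCl3 libraries. None of the 48 SNORD115 entries had a read in any library. Such short RNAs are poorly captured in standard RNA-Seq libraries, and the SNORD116 entries held 5 to 23 reads in each washed-out library in sum.

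Other imprinted members of the cluster did not share this pattern. MAGEL2 and NDN, both of the MAGE family, had no read in any library, nor did NPAP1, PWRN1, PWRN2 and PWAR4. MKRN3, a ring finger protein, had 0 and 2 reads for UT, 7 and 7 for Ni-E, 0 and 0 for Ni-W and 0 and 0 for HCl3, so that its few reads fell in UT and Ni-E. UBE3A (chr15:25582396-25684175) had 19.6 and 24.1 RPKM for UT, 23.8 and 22.8 for Ni-E, 27.9 and 32.4 for Ni-W and 27.1 and 24.5 for HCl3. It was higher in Ni-W than in Ni-E by a log2 fold change of 0.37 ± 0.11, adjusted P = 0.00202, below the 1.5-fold limit, and in HCl3 its difference from Ni-E was 0.14 ± 0.09, adjusted P = 0.237.

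The non-imprinted neighbours CYFIP1, a regulator of actin assembly and translation, and the magnesium transporter genes NIPA1 and NIPA2 stayed near the level of the chromosome. CYFIP1 had 27.5 and 29.3 RPKM for UT, 32.4 and 32 for Ni-E, 44.1 and 43.4 for Ni-W and 40.1 and 40.2 for HCl3, and its Ni-W to Ni-E log2 fold change was 0.44 ± 0.09, adjusted P = 5.55e-06. NIPA1 had 8.01 and 8.68 RPKM for UT, 9.8 and 9.43 for Ni-E, 13.1 and 13.9 for Ni-W and 13.1 and 12.2 for HCl3. NIPA2 had 29 and 31.7 RPKM for UT, 34.4 and 33.8 for Ni-E, 42.3 and 41.3 for Ni-W and 39 and 38.3 for HCl3. All 3 were higher in each washed-out library than in each UT library. Further from the cluster, TJP1, the tight junction scaffold ZO-1, had 13.3 and 15.3 RPKM for UT, 12.2 and 12.5 for Ni-E, 18.5 and 20.6 for Ni-W and 18.8 and 18.2 for HCl3. The transcription factor gene KLF13 had 5 and 4.87 RPKM for UT, 4.83 and 4.32 for Ni-E, 5.07 and 5.92 for Ni-W and 6.33 and 6.21 for HCl3. TJP1 was also higher in each washed-out library than in each UT library. Of 19 listed genes of the imprinted region and its neighbours, 12 passed the minimum, and 5 were called in Ni-W against Ni-E, each higher, where 30.4% of the chromosome's tested genes and 11.7% of all genes were higher. Their median DESeq2 log2 fold change was 0.47, beside 0.46 for the chromosome and -0.02 for all genes. In HCl3, 3 were called, each higher (21.2% of the chromosome's tested genes and 10.4% of all genes), with a median of 0.40 beside 0.36 and -0.03. SNRPN and SNURF count as 2 genes in these numbers although they share reads. They reached the minimum only through the washed-out libraries, so they had to differ. The lists of genes used here were drawn up with earlier results of these data known. In each list, calls are counted among members that passed the minimum, whereas the shares beside them are of all tested genes. On the chromosome, 21 of the 168 calls in Ni-W against Ni-E were of genes below the minimum, and 16 of 118 in HCl3.

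**Figure D3:**
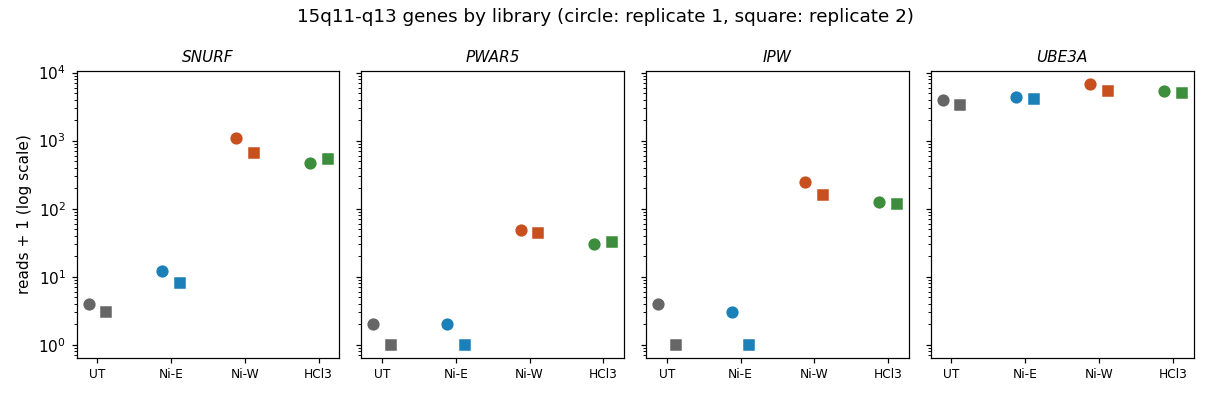
Reads plus 1 per library on a log scale for SNURF, PWAR5, IPW and UBE3A, with replicate 1 as circles and replicate 2 as squares. The first 3 genes lay at or below 11 reads in UT and Ni-E and at 29 or more in Ni-W and HCl3, whereas UBE3A was expressed in all 8 libraries.

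Outside the imprinted cluster, the genes furthest above UT in washed-out cells by the naming rule were DNAJA4, CEMIP, ACTC1 and FMN1. DNAJA4 (chr15:78558560-78574538), a co-chaperone of HSP70, had 0.47 and 0.48 RPKM for UT, 0.09 and 0.14 for Ni-E, 8.7 and 9.91 for Ni-W and 7.68 and 8.03 for HCl3. It was lowest in Ni-E and highest in Ni-W, without overlap between UT, Ni-E and the washed-out groups. Its log2 fold change against Ni-E was 6.51 ± 0.34 in Ni-W and 6.25 ± 0.33 in HCl3.

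CEMIP (chr15:81071712-81243999), a hyaluronan-binding protein involved in hyaluronan breakdown, had 0.03 and 0.01 RPKM for UT, 0.02 and 0.03 for Ni-E, 0.48 and 0.48 for Ni-W and 0.58 and 0.58 for HCl3. It was near 0 in UT and Ni-E and its log2 fold change against Ni-E was 4.24 ± 0.54 in Ni-W and 4.48 ± 0.52 in HCl3. ACTC1, the cardiac alpha-actin, had 0.11 and 0.06 RPKM for UT, 0.06 and 0.02 for Ni-E, 1.24 and 1.27 for Ni-W and 0.54 and 0.54 for HCl3, and its log2 fold change against Ni-E was 5.02 ± 0.55 in Ni-W and 3.78 ± 0.66 in HCl3. FMN1, an actin-nucleating formin, had 0.02 and 0.02 RPKM for UT, 0.04 and 0.06 for Ni-E, 0.16 and 0.23 for Ni-W and 0.32 and 0.32 for HCl3. All 3 remained at low levels in washed-out cells.

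Some more abundant genes were singled out after their values had been seen. GPR176, an orphan G protein-coupled receptor, had 2.74 and 2.91 RPKM for UT, 2.96 and 3.75 for Ni-E, 24.6 and 25 for Ni-W and 19.4 and 19.9 for HCl3. IGF1R, the receptor of insulin-like growth factor 1, had 2.88 and 2.75 RPKM for UT, 2.58 and 2.89 for Ni-E, 8.86 and 10.3 for Ni-W and 8.22 and 7.97 for HCl3. BMF, a pro-apoptotic BH3-only protein, had 0.78 and 0.4 RPKM for UT, 0.35 and 0.61 for Ni-E, 3.23 and 2.98 for Ni-W and 1.9 and 1.83 for HCl3. In each, the washed-out libraries lay well above those of UT and Ni-E. Against Ni-E, the log2 fold change in Ni-W was 2.89 ± 0.12 for GPR176, 1.81 ± 0.12 for IGF1R and 2.72 ± 0.25 for BMF.

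Few expressed genes went against the chromosome. CHAC1 (chr15:41245636-41248717), a glutathione-degrading enzyme induced by the unfolded protein and amino acid responses, had 8.36 and 7.24 RPKM for UT, 24.2 and 23.1 for Ni-E, 3.51 and 3.02 for Ni-W and 3.32 and 3.82 for HCl3. It was highest in Ni-E and lower in washed-out cells than in UT, with no overlap between UT, Ni-E and the washed-out groups. Its log2 fold change against Ni-E was -2.86 ± 0.16, adjusted P = 3.37e-71, for Ni-W and -2.76 ± 0.15, adjusted P = 2.73e-74, for HCl3. FBXO22-AS1 had 10.8 and 9.06 RPKM for UT, 8.14 and 8.69 for Ni-E, 5.81 and 6.43 for Ni-W and 7.2 and 7.74 for HCl3, but it overlaps FBXO22 on the other strand, and whether the counting used strand is not given in the sources used here. PAQR5, a progestin receptor of the membrane, had 1.45 and 1.66 RPKM for UT, 1.37 and 1.07 for Ni-E, 0.95 and 1.02 for Ni-W and 1.6 and 1.34 for HCl3, lower in Ni-W than in UT and overlapping UT in HCl3. SPESP1, a sperm equatorial segment protein, had 14.2 and 13.7 RPKM for UT, 14.9 and 14.2 for Ni-E, 11.2 and 9.56 for Ni-W and 11.3 and 11.5 for HCl3. HDDC3, a phosphohydrolase, had 11.7 and 10.6 RPKM for UT, 15.9 and 16.1 for Ni-E, 9.03 and 7.73 for Ni-W and 9.28 and 9.86 for HCl3. Both were lower in the washed-out libraries than in Ni-E, with a log2 fold change in Ni-W of -0.49 ± 0.15, adjusted P = 0.00567, for SPESP1 and -0.92 ± 0.18, adjusted P = 2.37e-06, for HDDC3. CHAC1, SPESP1 and HDDC3 were named for low values in these washed-out libraries, so their P values against Ni-E are not independent of that choice.

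Among the genes lower in HCl3 than in UT, RSL24D1, a ribosome biogenesis factor, had 55.5 and 54.4 RPKM for UT, 72.3 and 73 for Ni-E, 53.2 and 52.5 for Ni-W and 43.9 and 43.3 for HCl3. KIAA0101, which binds PCNA, had 77.2 and 61 RPKM for UT, 58.2 and 59.7 for Ni-E, 75.2 and 71.8 for Ni-W and 58.8 and 52.1 for HCl3. For RSL24D1, the log2 fold change in HCl3 against Ni-E was -0.75 ± 0.09, adjusted P = 2.07e-16, and for KIAA0101 it was -0.10 ± 0.09, adjusted P = 0.436. Both genes were named for low values in the same HCl3 libraries, so these P values are not independent of that choice. The aryl hydrocarbon-responsive monooxygenase gene CYP1A1 had 0.67 and 0.74 RPKM for UT, 0.6 and 0.37 for Ni-E, 0.8 and 0.62 for Ni-W and 0.42 and 0.48 for HCl3. DPH6, of diphthamide synthesis, had 2.29 and 2.84 RPKM for UT, 2.58 and 2.73 for Ni-E, 2.39 and 2.4 for Ni-W and 1.91 and 2.15 for HCl3. Both were lower in HCl3 than in UT in every library. TLE3, a Groucho corepressor, had 3.82 and 3.45 RPKM for UT, 3.4 and 3.26 for Ni-E, 3.13 and 3.16 for Ni-W and 4.93 and 5.04 for HCl3, lowest in Ni-W and highest in HCl3.

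**Figure D4:**
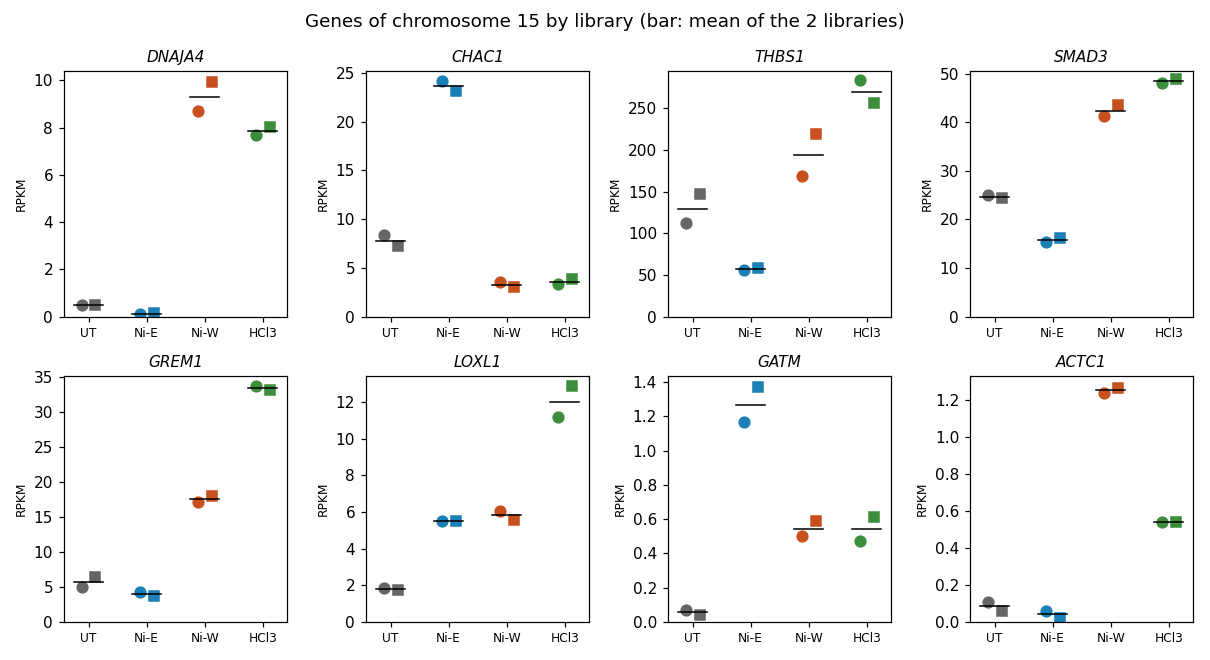
RPKM per library of DNAJA4, CHAC1, THBS1, SMAD3, GREM1, LOXL1, GATM and ACTC1, with replicate 1 as circles, replicate 2 as squares and the mean of the 2 libraries as a bar. CHAC1 and GATM were highest in Ni-E, THBS1 and SMAD3 were lowest there, and GREM1 and LOXL1 were highest in HCl3.

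Genes of matrix, adhesion and cytoskeleton were mostly higher in washed-out cells, as were the chromosome's genes as a whole. Of 29 listed members in the tables, 25 passed the minimum. Against Ni-E, 23 of these had a log2 fold change above 0 in Ni-W and 23 in HCl3, beside 88.4% and 87.1% of the chromosome's expressed genes. Against UT, 20 did in Ni-W and 24 in HCl3, beside 92.2% and 87.9%. In HCl3 against Ni-E, 16 were called, each higher (21.2% on the chromosome and 10.4% over all genes), with a median log2 fold change of 0.92 beside 0.36 for the chromosome and -0.03 for all genes. In Ni-W against Ni-E, 14 were higher (30.4% and 11.7%) and 1, SEMA7A, lower (1.32% and 8.81%), with a median of 0.70 beside 0.46 and -0.02. These list medians are of DESeq2 log2 fold changes. Of the passing members, CEMIP, ACTC1 and SEMA6D reached 50 reads only through the washed-out libraries, so they had to differ. THBS1 had 112 and 147 RPKM for UT, 55.3 and 57.9 for Ni-E, 169 and 219 for Ni-W and 283 and 256 for HCl3. TPM1, a tropomyosin, had 177 and 205 RPKM for UT, 126 and 138 for Ni-E, 298 and 349 for Ni-W and 333 and 328 for HCl3. IQGAP1, a cytoskeletal scaffold, had 57.8 and 65.4 RPKM for UT, 45.1 and 44 for Ni-E, 97.1 and 95.7 for Ni-W and 86 and 83.6 for HCl3. In all 3, Ni-E lay below UT and the washed-out libraries above it. Against Ni-E in HCl3, THBS1 rose by a log2 fold change of 2.24 ± 0.08, adjusted P = 7.77e-188, and TPM1 by 1.31 ± 0.07, adjusted P = 1.21e-67. FBN1, the fibrillin-1 gene, had 13.8 and 14.6 RPKM for UT, 9.13 and 12 for Ni-E, 17.1 and 17.6 for Ni-W and 25.3 and 24.4 for HCl3, and its log2 fold change in HCl3 against Ni-E was 1.22 ± 0.10, adjusted P = 9.30e-30. ANXA2, annexin A2, had 627 and 666 RPKM for UT, 545 and 524 for Ni-E, 931 and 886 for Ni-W and 854 and 904 for HCl3. The proteoglycan gene CSPG4 had 31.5 and 27 RPKM for UT, 24.7 and 22.9 for Ni-E, 27 and 29.5 for Ni-W and 31.4 and 31.6 for HCl3, and its Ni-W and UT libraries overlapped.

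Signalling and transcription factor genes were also mostly higher in washed-out cells, as were the chromosome's genes as a whole. Of 30 listed members, 25 passed the minimum, and 15 were called in Ni-W against Ni-E and 14 in HCl3, each higher. The shares called higher were 30.4% and 21.2% on the chromosome, and 11.7% and 10.4% over all genes. The medians were 0.67 and 0.60, beside 0.46 and 0.36 for the chromosome. Of the 25, 22 had a log2 fold change above 0 in Ni-W and 23 in HCl3, beside 88.4% and 87.1% of the chromosome's expressed genes. SMAD3 had 25 and 24.4 RPKM for UT, 15.3 and 16.1 for Ni-E, 41.3 and 43.5 for Ni-W and 48.1 and 49 for HCl3, lowest in Ni-E and highest in HCl3, with a log2 fold change of 1.44 ± 0.09, adjusted P = 4.52e-53, in Ni-W against Ni-E. ADAM10, a sheddase of Notch and cadherins, had 28.6 and 34 RPKM for UT, 25.2 and 25.9 for Ni-E, 53.2 and 55.9 for Ni-W and 49 and 44.6 for HCl3. MAP2K1, the kinase MEK1, had 28.5 and 30.4 RPKM for UT, 32.8 and 29.7 for Ni-E, 44.6 and 48 for Ni-W and 47.2 and 48.2 for HCl3. Both were higher in every washed-out library than in UT and Ni-E. SIN3A, a corepressor scaffold, had 14.5 and 14.6 RPKM for UT, 11.1 and 11.4 for Ni-E, 21.9 and 21.3 for Ni-W and 18.7 and 18.8 for HCl3. By contrast BNC1, the epithelial zinc finger protein basonuclin, had 22.9 and 26.9 RPKM for UT, 17.2 and 15.5 for Ni-E, 25 and 27.8 for Ni-W and 26.1 and 25.3 for HCl3, so that its washed-out libraries overlapped those of UT and Ni-E alone lay apart. NR2F2, an orphan nuclear receptor, had 26.6 and 34.8 RPKM for UT, 22.2 and 15.3 for Ni-E, 32.8 and 41.3 for Ni-W and 41.7 and 39.1 for HCl3, and its UT libraries spanned the lower Ni-W library.

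The metabolic and mitochondrial genes had medians below that of the chromosome. Of 35 listed members, 27 passed, 5 were called higher and 1 lower in Ni-W against Ni-E, and 3 and 1 in HCl3, with medians of 0.32 and 0.10. Over all genes, 11.7% were higher and 8.81% lower in Ni-W and 10.4% and 6.78% in HCl3, and on the chromosome 30.4% and 21.2% were higher. PKM, the glycolytic pyruvate kinase, had 699.9 and 685 RPKM for UT, 632 and 604 for Ni-E, 997 and 923 for Ni-W and 974 and 1031 for HCl3, higher in all 4 washed-out libraries. DUT, which removes dUTP, had 44.4 and 49.1 RPKM for UT, 48.9 and 53.7 for Ni-E, 68.9 and 64.1 for Ni-W and 60.8 and 62.5 for HCl3. CHP1, a calcium-binding protein, had 28.8 and 29.2 RPKM for UT, 28.6 and 25.1 for Ni-E, 33.9 and 33.4 for Ni-W and 31.5 and 31.3 for HCl3. Both lay above UT and Ni-E in every washed-out library. COX5A, a subunit of cytochrome oxidase, had 103 and 104 RPKM for UT, 122 and 109 for Ni-E, 119 and 117 for Ni-W and 116 and 121 for HCl3, and its log2 fold change in Ni-W against Ni-E was 0.04 ± 0.11, adjusted P = 0.83. IDH3A, of the tricarboxylic acid cycle, had 28.4 and 32.5 RPKM for UT, 32.3 and 28 for Ni-E, 37 and 36.6 for Ni-W and 31.5 and 30.5 for HCl3. ETFA, of electron transfer from fatty acid oxidation, had 93 and 97.8 RPKM for UT, 107 and 107 for Ni-E, 119 and 121 for Ni-W and 107 and 104 for HCl3. For COX5A, the washed-out libraries lay within the range of Ni-E. GATM (chr15:45653322-45670980), the first enzyme of creatine synthesis, was the member called lower and had 0.07 and 0.04 RPKM for UT, 1.17 and 1.37 for Ni-E, 0.5 and 0.59 for Ni-W and 0.47 and 0.61 for HCl3. It was highest in Ni-E and remained above UT in the washed-out cells, at a log2 fold change of -1.23 ± 0.36 in Ni-W against Ni-E.

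Cell division and DNA repair genes included many that were higher in Ni-W than in HCl3. Of 25 listed members, 24 passed, and 11 were called in Ni-W against Ni-E and 4 in HCl3, each higher, with medians of 0.55 and 0.36, where 30.4% and 21.2% were higher on the chromosome and 11.7% and 10.4% over all genes. NUSAP1, a spindle-associated protein, had 68.9 and 73.7 RPKM for UT, 76.4 and 86.7 for Ni-E, 137 and 133 for Ni-W and 103 and 104 for HCl3. BUB1B had 25.3 and 27.6 RPKM for UT, 24.2 and 24.7 for Ni-E, 46.3 and 45.6 for Ni-W and 36.7 and 36.2 for HCl3. PRC1, a midzone cross-linker, had 77.5 and 83.7 RPKM for UT, 75.4 and 79.8 for Ni-E, 138 and 130.4 for Ni-W and 108 and 112 for HCl3. In each, every Ni-W library lay above every HCl3 library, which lay above UT. The mitotic cyclin gene CCNB2 had 82.8 and 86.1 RPKM for UT, 82.1 and 87.4 for Ni-E, 131 and 123 for Ni-W and 106 and 110.3 for HCl3. The kinesin gene KIF23 had 42.4 and 48.3 RPKM for UT, 37 and 40.2 for Ni-E, 67.5 and 70.4 for Ni-W and 56.7 and 55.2 for HCl3. FANCI, of DNA crosslink repair, had 25.2 and 27.8 RPKM for UT, 23.4 and 24.1 for Ni-E, 40.5 and 38.9 for Ni-W and 34.4 and 33.8 for HCl3. All 3 showed the same order. In HCl3 against Ni-W, 10 of the 24 had a lower level at an adjusted P under 0.05, but none by 1.5-fold, beside 12.3% of the chromosome's tested genes and 8.1% of all genes lower at that adjusted P, and the list's median was -0.24 beside -0.12 for the chromosome. For NUSAP1 that difference was -0.40 ± 0.07, adjusted P = 2.47e-07. TIPIN, a replication fork protein named after its values were seen as the lowest of the list, had 17.7 and 17.9 RPKM for UT, 18.2 and 17 for Ni-E, 15.9 and 15.7 for Ni-W and 16.8 and 16.5 for HCl3, with a Ni-W to Ni-E log2 fold change of -0.15 ± 0.14, adjusted P = 0.423.

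Antigen presentation and interferon response genes were few. Of 11 listed members, 8 passed the minimum, and 4 were called against Ni-E in each washed-out group, each higher, with medians of 0.58 in Ni-W and 0.68 in HCl3. The shares higher were 30.4% and 21.2% on the chromosome and 11.7% and 10.4% over all genes. B2M had 595 and 510.1 RPKM for UT, 562 and 625 for Ni-E, 1025 and 907 for Ni-W and 817 and 804 for HCl3, a log2 fold change of 0.71 ± 0.09, adjusted P = 9.63e-13, in Ni-W against Ni-E. The checkpoint ligand CD276 had 13.4 and 14.1 RPKM for UT, 18.9 and 18.8 for Ni-E, 27.9 and 24.1 for Ni-W and 24.1 and 26.1 for HCl3. PML, of nuclear bodies, had 18.1 and 16.8 RPKM for UT, 16.3 and 17.3 for Ni-E, 22 and 24.2 for Ni-W and 29.4 and 30.1 for HCl3. All 3 were highest in washed-out libraries, and PML was higher in HCl3 than in Ni-W. ANPEP, aminopeptidase N, had 0.77 and 0.7 RPKM for UT, 0.4 and 0.48 for Ni-E, 2.35 and 2.07 for Ni-W and 1.9 and 1.99 for HCl3, lowest in Ni-E. MFGE8, a bridge to apoptotic cells, had 25.2 and 22.1 RPKM for UT, 29.2 and 28.9 for Ni-E, 43 and 38.4 for Ni-W and 45.2 and 49.5 for HCl3. The lysosomal protease gene CTSH had 5.46 and 5.24 RPKM for UT, 6.92 and 8.19 for Ni-E, 7.79 and 7 for Ni-W and 7.88 and 8.45 for HCl3.

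The genes of translation and of protein and RNA turnover included genes at both extremes and abundant genes that hardly differed. Of 36 listed members, 34 passed, 9 were called higher and 1 lower in Ni-W against Ni-E, and 4 and 1 in HCl3, with medians of 0.38 and 0.22. All genes gave 11.7% higher and 8.81% lower in Ni-W and 10.4% and 6.78% in HCl3, and the chromosome 30.4% and 21.2% higher. DNAJA4 and CHAC1, described above, were its extremes. DNAJA4 reached 50 reads only through the washed-out libraries, so it had to differ. RPL4, a protein of the large ribosomal subunit, had 361 and 373 RPKM for UT, 495 and 424 for Ni-E, 404 and 381 for Ni-W and 373 and 391 for HCl3, and its Ni-W to Ni-E log2 fold change was -0.23 ± 0.10, adjusted P = 0.0675. RPLP1, of the ribosomal stalk, had 1116 and 705 RPKM for UT, 930.0 and 883 for Ni-E, 1228 and 987 for Ni-W and 896 and 984 for HCl3, a spread between the UT libraries wider than the difference between groups. PSMA4, of the proteasome, had 202 and 187 RPKM for UT, 176 and 189 for Ni-E, 246 and 231 for Ni-W and 198 and 199.6 for HCl3. SRP14, of the signal recognition particle, had 146 and 117 RPKM for UT, 120.0 and 122 for Ni-E, 184 and 153 for Ni-W and 148 and 155 for HCl3. The HCl3 libraries overlapped UT for PSMA4 and lay just above it for SRP14. The folding enzymes of the endoplasmic reticulum PDIA3 and PPIB were higher in washed-out cells. PDIA3 had 88.8 and 99.5 RPKM for UT, 86 and 91.7 for Ni-E, 153 and 156 for Ni-W and 135 and 136 for HCl3. PPIB had 265 and 246 RPKM for UT, 317 and 309.9 for Ni-E, 407 and 376 for Ni-W and 331 and 359 for HCl3.

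In Ni-E against UT, where the chromosome did not shift, the genes furthest above UT were GATM, LOXL1, HOMER2, CHAC1, CORO2B and HAPLN3. This ranking took genes that averaged 50 or more reads over the UT and Ni-E libraries and whose groups did not overlap. SNRPN and SNURF, with at most 11 reads in these libraries, had fitted log2 fold changes of 2.56 ± 1.67 and 1.70 ± 1.42. ISG20, also outside these limits, had 1.36. LOXL1 (chr15:74218789-74244478), a lysyl oxidase that cross-links elastin, had 1.82 and 1.72 RPKM for UT, 5.52 and 5.52 for Ni-E, 6.06 and 5.58 for Ni-W and 11.2 and 12.9 for HCl3, but it overlaps LOXL1-AS1 on the other strand. HOMER2, a synaptic scaffold protein, had 0.44 and 0.52 RPKM for UT, 1.52 and 1.42 for Ni-E, 1.39 and 1.24 for Ni-W and 1.41 and 1.68 for HCl3. The actin-binding CORO2B had 0.42 and 0.28 RPKM for UT, 1.06 and 0.68 for Ni-E, 0.89 and 1.08 for Ni-W and 1.53 and 1.71 for HCl3. HAPLN3, a hyaluronan link protein, had 1.95 and 1.13 RPKM for UT, 3.02 and 3.84 for Ni-E, 3.13 and 2.24 for Ni-W and 3.63 and 3.81 for HCl3. These 4 genes were higher in both Ni-E libraries than in UT, and their washed-out libraries also lay above UT. By the same limits, the genes furthest below UT were THBS1, ALDH1A3, HERC2P2, ARNT2, FAM189A1 and ANPEP. ALDH1A3, a retinaldehyde dehydrogenase, had 1.89 and 2.01 RPKM for UT, 0.99 and 0.75 for Ni-E, 2.21 and 1.94 for Ni-W and 1.59 and 1.73 for HCl3. ARNT2, a partner of bHLH-PAS factors, had 1.97 and 1.8 RPKM for UT, 0.9 and 1.3 for Ni-E, 4.96 and 4.62 for Ni-W and 4.24 and 4.27 for HCl3. FAM189A1 had 0.99 and 0.95 RPKM for UT, 0.58 and 0.56 for Ni-E, 1.33 and 1.57 for Ni-W and 1.46 and 1.42 for HCl3. HERC2P2, a pseudogene of a multicopy family whose reads are uncertain, had 0.35 and 0.44 RPKM for UT, 0.23 and 0.2 for Ni-E, 0.46 and 0.45 for Ni-W and 0.38 and 0.34 for HCl3. Genes averaging fewer than 50 reads over the UT and Ni-E libraries included DNAJA4, SEMA6D and NPTN-IT1, which were further below UT than THBS1. Their log2 fold changes were -2.16 ± 0.63, -1.63 ± 0.61 and -1.61 ± 0.55. In ALDH1A3, ARNT2, FAM189A1 and HERC2P2 every washed-out library lay above both Ni-E libraries.

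The 2 washed-out populations differed from each other by less than either differed from UT. The median of HCl3 against Ni-W was -0.13, with -0.00 on other chromosomes, and it was below 0 in all 14 windows of 5 Mb with at least 10 genes. Both HCl3 libraries lay below both Ni-W libraries for 211 genes and above for 65, with 33.1% and 31.7% over all genes. By DESeq2, 10 of 494 genes were called higher and 9 lower, where 3.1% and 1.66% of all genes were called, 4.77% in all. With the chromosome 15 median of each library subtracted, the split was 15 higher and 7 lower. The highest in HCl3 by the naming rule were LOXL1 (1.03 ± 0.13, adjusted P = 2.42e-13), GREM1 (0.91 ± 0.08, adjusted P = 1.52e-27) and SEMA7A (0.73 ± 0.17, adjusted P = 2.62e-04). GREM1, a secreted BMP antagonist that overlaps LOC100131315 on the other strand, had 5.04 and 6.45 RPKM for UT, 4.31 and 3.69 for Ni-E, 17.1 and 18.1 for Ni-W and 33.7 and 33.2 for HCl3. SEMA7A, a membrane-anchored semaphorin, had 1.92 and 2.08 RPKM for UT, 4.69 and 2.9 for Ni-E, 2.06 and 1.98 for Ni-W and 3.34 and 3.45 for HCl3, with Ni-W at the UT level. IGDCC4, of the immunoglobulin superfamily, had 0.02 and 0 RPKM for UT, 0.03 and 0.02 for Ni-E, 0.14 and 0.16 for Ni-W and 0.34 and 0.25 for HCl3, and the difference had an adjusted P of 0.0901.

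The lowest in HCl3 relative to Ni-W were SEMA6D, ACTC1, SNURF and C15orf48. SEMA6D, a transmembrane semaphorin, had 0.26 and 0.22 RPKM for UT, 0.07 and 0.08 for Ni-E, 1.03 and 0.88 for Ni-W and 0.54 and 0.34 for HCl3, with a log2 fold change of -1.25 ± 0.26, adjusted P = 6.33e-05. For ACTC1 it was -1.24 ± 0.27, adjusted P = 9.31e-05, and for SNURF -0.76 ± 0.14, adjusted P = 1.42e-06. C15orf48, a mitochondrial protein linked to inflammation, had 2.02 and 1.12 RPKM for UT, 1.13 and 2.98 for Ni-E, 14.8 and 9.77 for Ni-W and 7.19 and 7.61 for HCl3, a difference of -0.76 ± 0.21, adjusted P = 0.00314. The 2 Ni-W libraries of C15orf48 were far apart, and without Ni-W replicate 1 its difference was -0.43 with an adjusted P of 0.416. It was also lost without HCl3 replicate 1 (adjusted P = 0.216) and without HCl3 replicate 2 (0.159). The SEMA6D call was lost without Ni-W replicate 1 (adjusted P = 0.0631) and without HCl3 replicate 2 (0.125), and that of ACTC1 without HCl3 replicate 2 (0.0656). The SEMA7A call was lost without HCl3 replicate 1 (0.0914) and without HCl3 replicate 2 (0.172).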

How the data were processed

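The authors sequenced 8 RNA libraries (TruSeq RNA kit), aligned reads to hg19 with STAR (version 2.4 in the submitters' processing notes), removed reads with several hits, and deposited counts of reads per RefSeq gene and RPKM values made with BioWardrobe. Use of strand in counting is not given in the sources used here.

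Deposited counts were tested for each pair of groups with DESeq2 1.42.0 (R 4.3.3), adjusted over all genes by Benjamini-Hochberg and called at an adjusted P under 0.05 and 1.5-fold. Levels along the chromosome are differences of log2(normalised count + 1) for genes averaging 50 or more counts, divided by least squares into constant levels (differences limited to 1 either way, penalty factor 3, at least 10 genes). These scripts were tested on simulated data. Deposited RPKM values give levels per library. No P value was computed for the chromosome or for gene lists. Members, lists and rules were chosen with earlier results of these data known. The text names, for each group against UT, the 6 largest rises and 6 largest falls among genes with a mean normalised count of 50 over the 4 libraries compared and non-overlapping libraries, the genes at the ends of stretches, the 6 most abundant members of each list, GATM, and the 4 largest differences each way between HCl3 and Ni-W. Exceptions are marked in the text.

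Same-suffix libraries were not paired, since correlations of their deviations ranged from -0.145 to 0.212. Intervals for few reads are exact binomial and cover counting error only. Alternatives covered edgeR 4.0.16, limma 3.58.1, TMM, other count minimums, GC and length trends, and leaving out each library.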

Additional observations from a re-analysis of the deposited data

Results flagged for a closer look

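For 7 named genes, the level differed between the 2 washed-out populations when HCl3 was tested against Ni-W directly with DESeq2. The log2 fold change was -0.76 for SNURF, 0.91 for GREM1, -1.24 for ACTC1, -0.76 for C15orf48, -1.25 for SEMA6D, 1.03 for LOXL1 and 0.73 for SEMA7A. The chromosome 15 median of the same comparison was -0.13. The levels of these genes in each library, and the calls that rest on 1 library, stand with the comparison of HCl3 and Ni-W.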

How the results depend on the processing

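The median of Ni-E against UT was 0.0219 with GC and length trends removed, 0.0147 on log2(RPKM + 1) and 0.0215 on log2(RPKM + 0.1), against the -0.02 given, and -0.0497 to -0.0026 when each library was left out in turn. That of Ni-W was 0.47 with a minimum of 10 reads, 0.46 without GC and length trends, 0.41 on log2(RPKM + 1), 0.47 on log2(RPKM + 0.1) and 0.42 to 0.47 with a library left out. That of HCl3 was 0.37 without GC and length trends, 0.36 on log2(RPKM + 0.1) and 0.33 to 0.35 with a library left out. Raising the limit for a shifted stretch to 0.35 left 155 genes inside one in HCl3, and dividing the penalty by 2 left 385 in Ni-W.

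In the order Ni-E, Ni-W and HCl3 against UT, Ni-W and HCl3 against Ni-E, and HCl3 against Ni-W, calls without the fold limit numbered 47, 262, 211, 283, 246 and 80, and at 2-fold 10, 57, 54, 72, 55 and 6. These and the counts below are of chromosome 15 genes, without the share over all genes at each setting. They show only how the counts moved. With the chromosome 15 median of each library subtracted, an alternative chosen after seeing the data, the changed totals were 56 and 64 for Ni-W and HCl3 against UT and 79 and 65 for those against Ni-E. By limma they were 7 for Ni-E against UT, 95 and 67 for Ni-W and HCl3 against Ni-E, and 5 for HCl3 against Ni-W. Leaving out a library gave, in the same order, 8 to 17, 94 to 132, 61 to 98, 123 to 144, 76 to 108 and 6 to 14 calls. The count of 23 for Ni-E against UT fell to 8 without UT replicate 2 or Ni-E replicate 1 and to 13 without Ni-E replicate 2. That of 99 for HCl3 against UT fell to 61 without either HCl3 replicate, that of 118 for HCl3 against Ni-E to 76 without HCl3 replicate 1, and that of 19 for HCl3 against Ni-W to 10, 8 and 6 without Ni-W replicate 1, HCl3 replicate 1 and HCl3 replicate 2. A lone library left in a group was taken to vary like the other group. The cause of these moves was not tested.

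With a replicate block, calls were 10 for Ni-E against UT and 11 for HCl3 against Ni-W, and 9 and 11 with GC and length trends removed as well. Crossing the numbers, chosen after seeing the data, gave 17 for Ni-E and 85 for HCl3 against UT. The block moved no other count of calls by over 1.5 times. Apart from the sign of the Ni-E median, no value changed direction under these alternatives. Of the values for single genes, 536 stayed on their side of the threshold, 74 lost it and 13 gained it.

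With 2 libraries a group the spread is poorly known, and genes with few reads in UT have wide intervals.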
